A study of Homo sapiens with 4 samples.

Results

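TFRC, ITFG2 and RLF are 3 genes whose promoters carried a HAUSP peak in MDA-MB-231 cells, a HAUSP peak in H1299 cells and a HIF-1α peak in H1299 cells. They were chosen by these peaks, as 3 of the 30 protein-coding genes, and of the 45 annotated genes of any kind, that had a peak of each list within 500 bp of the transcription start site (TSS) among 64439 genes. The share of all genes with peaks of the 3 lists at the TSS was 0.0698%. Since the presence of the peaks selected the genes, their peak scores are given as a description without a test. ChIP-seq, in which chromatin is fixed, fragmented and pulled down with an antibody before its DNA is sequenced, had been performed for HAUSP in MDA-MB-231, a breast cancer line, and in H1299, a lung cancer line, and for HIF-1α in H1299. Both lines were grown in DMEM with fetal bovine serum, and the labels give neither an oxygen level nor a treatment for these cultures. Each list came from 1 library, so no spread between replicates is known and the lines cannot be told apart from the libraries. The lists held 1343, 1379 and 4054 peaks, in the order named above. The authors' score per peak was at least 50 in each list, its scale is not named in the sources used here, and peaks were ordered by it only within a list. The sequencing depth is unknown, because the files give no read counts. The 1 input library of the 4 samples, from H1299 without an antibody, was not used here.

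HIF-1α is the oxygen-regulated subunit of a transcription factor that pairs with ARNT and binds DNA at the short core ACGTG or, less often, GCGTG. In oxygenated cells it is hydroxylated, ubiquitinated by the VHL ligase and degraded, and HAUSP (USP7) is a deubiquitinase, an enzyme that removes ubiquitin from proteins. TFRC encodes the transferrin receptor, which carries iron-loaded transferrin into the cell and is a known hypoxia-responsive gene. ITFG2 encodes a subunit of KICSTOR, the complex that places the GATOR1 inhibitor of mTORC1 on the lysosome and so couples growth signalling to amino acid supply. RLF encodes a nuclear zinc finger protein, first found as a partner of MYCL in gene fusions of small cell lung cancer.

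The sequences below, read from GRCh37 (the hg19 coordinates of the files) on the strand of the gene, are shown because they hold every ACGTG inside the peaks of all 3 lists at the 3 promoters. Capitals mark the cores ACGTG and GCGTG.
TFRC, chr3:195809033-195809062, minus strand: acctcgcgagcgtACGTGcctcaggaagtg
RLF, chr1:40627019-40627048, plus strand: ccagggctgagtCACGTGgcttggttgcct
ITFG2 at the peak centre, chr12:2921935-2921964, plus strand: agttagctACGTGcagcGCGTGgcgctgga
ITFG2 second cluster, chr12:2922094-2922123, plus strand: gcccgaGCGTGcCACGTGaGCGTGagcatg
TFRC and RLF each had 1 such place, and at RLF it was the palindrome CACGTG, which reads ACGTG on both strands. ITFG2 had clusters, with 2 cores in the first window and 4 in the second when the palindrome was counted on both strands.

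TFRC lies on the minus strand of chromosome 3, and its most upstream annotated TSS, which was used here, is at 195809024. The MANE Select transcript ENST00000360110, the reference transcript for coding use, starts 63 bp downstream at 195808961. At this promoter the HAUSP peak of MDA-MB-231 had a score of 85.25, the HAUSP peak of H1299 a score of 92.76 and the HIF-1α peak a score of 126.37. The HAUSP peaks were at rank 538 of 1343, or 40.1% down the list, and rank 447 of 1379, or 32.4%, and the HIF-1α peak was at rank 55 of 4054, or 1.36%. The HAUSP peak of MDA-MB-231 covered 195808755 to 195809506, that of H1299 195808474 to 195810011, and the HIF-1α peak 195808817 to 195809233. The HIF-1α peak was thus contained in both HAUSP peaks, and the HAUSP peak of MDA-MB-231 was contained in that of H1299. The HIF-1α peak was centred at -1 bp from the TSS, the HAUSP peak of MDA-MB-231 at -106.5 bp and the HAUSP peak of H1299 at -218.5 bp, negative values being upstream. Its centre lay 217.5 bp from that of HAUSP in H1299 and 105.5 bp from that in MDA-MB-231. The HIF-1α peak covered the first exon of the MANE Select transcript, a 5′ UTR exon from 195808914 to 195808961.

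ITFG2 lies on the plus strand of chromosome 12, with its most upstream TSS at 2921788 and the start of its MANE Select transcript ENST00000228799 at 2921834. The HAUSP peak of MDA-MB-231 had a score of 56.32, the HAUSP peak of H1299 a score of 292.53 and the HIF-1α peak a score of 195.63. ITFG2 was the member in which the lines stood furthest apart: its HAUSP peak was at rank 1082 of 1343 in MDA-MB-231, near the lowest score kept in that list, and at rank 88 of 1379 in H1299. The HIF-1α peak was at rank 31 of 4054. The HAUSP peak of MDA-MB-231 covered 2921620 to 2922468, that of H1299 2921377 to 2922920, and the HIF-1α peak 2921399 to 2922491. The HIF-1α peak was 1093 bp wide, wider than 99.4% of its list, and reached beyond the HAUSP peak of MDA-MB-231 on both sides. The centres lay downstream of the TSS, at 157 bp for HIF-1α, 256 bp for HAUSP in MDA-MB-231 and 360.5 bp for HAUSP in H1299. The same 3 peaks touched the promoter window of ITFG2-AS1, an antisense lncRNA that the annotation gives under 2 gene identifiers, both starting 280 bp downstream of the ITFG2 TSS on the other strand. The peaks do not tell the promoters apart.

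RLF lies on the plus strand of chromosome 1, and its only annotated transcript, ENST00000372771, starts at 40627059. The HAUSP peak of MDA-MB-231 had a score of 242.26, the HAUSP peak of H1299 a score of 259.69 and the HIF-1α peak a score of 116.25. RLF was the member with the most even HAUSP ranks, 106 of 1343 in MDA-MB-231 and 104 of 1379 in H1299, and its HIF-1α peak was at rank 60 of 4054. The HAUSP peak of MDA-MB-231 covered 40626799 to 40627641, that of H1299 40626539 to 40627695, and the HIF-1α peak 40626875 to 40627239. As at TFRC, the HIF-1α peak was contained in the HAUSP peak of MDA-MB-231 and this in the HAUSP peak of H1299. The HIF-1α peak was centred at -2 bp from the TSS, the HAUSP peak of H1299 at 58 bp and the HAUSP peak of MDA-MB-231 at 161 bp. With a width of 365 bp the HIF-1α peak was narrow, and 3.31% of its list was narrower. It covered the 5′ UTR of the first exon and the start of the coding sequence at 40627072.

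**Figure D1:**
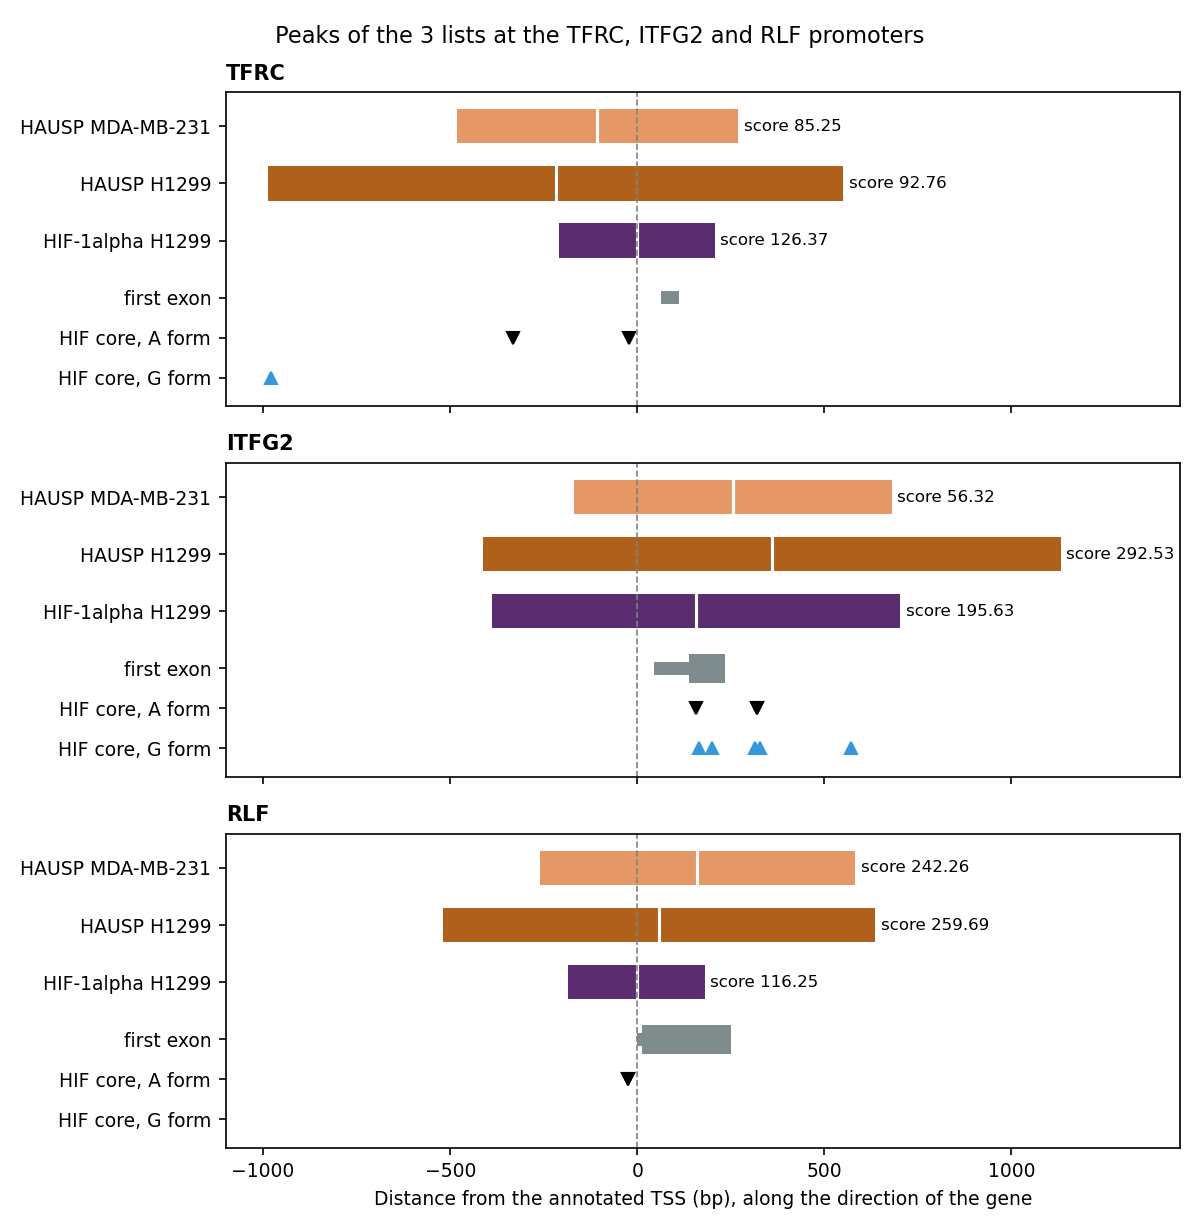
Peaks of the 3 lists at TFRC, ITFG2 and RLF by distance in bp from the annotated TSS, along the direction of each gene. Bars are deposited peaks with their scores, white lines their centres, grey boxes the first exon of the MANE Select transcript (thick where coding), and triangles the cores ACGTG (A form) and GCGTG (G form). The HIF-1α peaks of TFRC and RLF sit within the HAUSP peaks and are centred at -1 and -2 bp, and the peaks of ITFG2 are centred downstream.

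Within 5000 bp of the TSS each of the 3 genes had exactly 1 peak of each list. Peaks within 500 bp of a TSS were present for 0.374% of all genes in the HAUSP list of MDA-MB-231, for 1.06% in that of H1299 and for 0.276% in the HIF-1α list. The members differed in how isolated these peaks were. The nearest other HAUSP peak was 81.8 kb from that of TFRC in MDA-MB-231 and 81.2 kb in H1299, and it was the same place in both lines, from 195891259 to 195892736 and from 195891254 to 195892713. For ITFG2 it was 77.1 kb away in MDA-MB-231 and 13.4 kb in H1299. For RLF it was 7123.79 kb away in MDA-MB-231 and 211.976 kb in H1299. The nearest other HIF-1α peak was 58.5 kb from that of TFRC, 648.7 kb from that of ITFG2 and 30.4 kb from that of RLF. The order of the members by isolation thus differed between the lists. The promoters were 2.15 Mb (TFRC), 2.78 Mb (ITFG2) and 10.6 Mb (RLF) from the nearest assembly gap of at least 50 kb. Of the peaks in the lists, 508 of 1343, 521 of 1379 and 201 of 4054 lay within 1 Mb of such a gap, which raised the members' HAUSP ranks when those peaks were set aside. Without them the ranks in the HAUSP list of MDA-MB-231 were 283 for TFRC, 647 for ITFG2 and 37 for RLF, those in the HAUSP list of H1299 were 241, 35 and 46, and those in the HIF-1α list were 48, 26 and 53, with the genes in the same order. These ranks are out of the shortened lists, so they are not on the scale of the ranks in the full lists.

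Peaks of all 3 lists shared at least 1 bp in 63 places of the genome, and in 31 of these, or 49.2% (95% Clopper-Pearson interval 36.4 to 62.1), the shared interval touched the window of a TSS. Such intervals cover counting error only. The 3 promoters were not the places with the highest scores among these 31. By HIF-1α score ITFG2 was in place 13, TFRC in place 22 and RLF in place 23. By the HAUSP score of H1299 ITFG2 was in place 9, RLF in place 11 and TFRC in place 28, and by that of MDA-MB-231 RLF was in place 7, TFRC in place 18 and ITFG2 in place 29. The median scores over the 31 places were 179.22 for HIF-1α, 169.6 for HAUSP in H1299 and 87.86 for HAUSP in MDA-MB-231. No member was therefore above the median in all 3 lists: RLF exceeded it in both HAUSP lists, ITFG2 in both H1299 lists, and TFRC in no list.

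**Figure D2:**
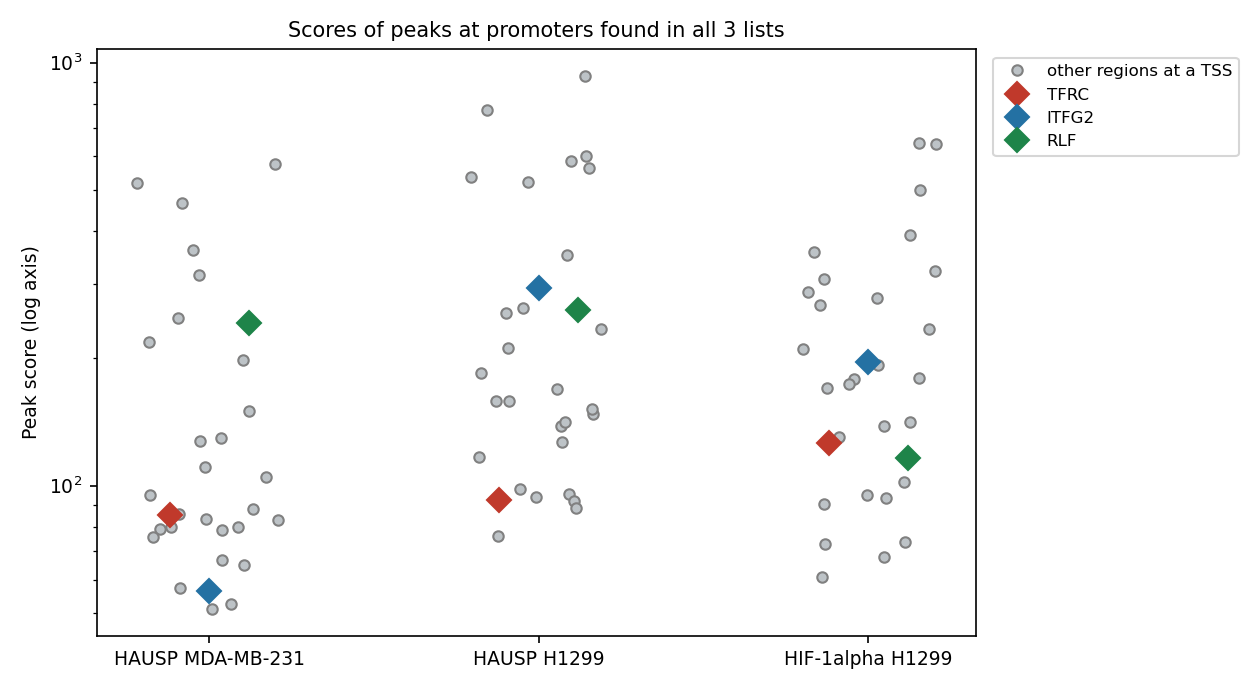
Peak scores (log axis, with a scale of its own in each list) at the 31 places at a TSS where the 3 lists overlap. Diamonds are the 3 genes and grey points the other places. TFRC lies near the median of 87.86 in the MDA-MB-231 list at 85.25 and low in the HAUSP list of H1299 at 92.76, and ITFG2 is near the lower end in MDA-MB-231 at 56.32 but at 292.53 in H1299.

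ITFG2 was the member closest to the limit of the rule, since its MDA-MB-231 peak had a score of 56.32 in a list whose lowest score was 50. Just outside the rule were 25 protein-coding genes with HAUSP of H1299 and HIF-1α at the TSS but no HAUSP peak of MDA-MB-231. The nearest MDA-MB-231 peak was between 28.8 and 12007.3 kb from their TSS. Their HAUSP scores in H1299 ranged from 50.19 to 426.34 with a median of 71.22, and their HIF-1α scores from 50.77 to 330.39 with a median of 69.14.

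The members differed in how the 3 peaks were arranged. The interval shared by the 3 peaks was 417 bp at TFRC, 849 bp at ITFG2 and 365 bp at RLF, against a median of 634 bp over the 31 places at a TSS. The centres of the HIF-1α peak and the HAUSP peak of H1299 were 217.5 bp apart at TFRC, 203.5 bp at ITFG2 and 60 bp at RLF, against a median of 120 bp (quartiles 47.5 and 207.5). The centres of the HAUSP peaks of the lines were 112, 104.5 and 103 bp apart, in the same order of genes, against a median of 73.5 bp. The HAUSP peak was wider in H1299 than in MDA-MB-231 at each member, with 1538 against 752 bp at TFRC, 1544 against 849 bp at ITFG2 and 1157 against 843 bp at RLF. This was also so at 23 of the 31 places, and the MDA-MB-231 peak of TFRC was the narrowest of these. The HIF-1α peak was contained in the HAUSP peak of H1299 at each member and at 26 of the 31 places.

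The sequence of the promoters was not used to choose the genes. TFRC had 1 ACGTG in the shared interval, from 195809045 to 195809049, at -23 bp from the most upstream TSS and -86 bp from the MANE Select start, on the strand of the gene. The flanks of the same width 2000 bp away had 0 copies on either side. A second ACGTG of TFRC, from 195809354 to 195809358 at -332 bp, was inside both HAUSP peaks and outside the HIF-1α peak, and the TFRC interval held 0 copies of GCGTG. In windows of the same length and position at 20113 protein-coding promoters, ACGTG was present in 28.8%, and a core of either form in 63.5%.

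RLF had the palindrome CACGTG from 40627031 to 40627036, at -25 bp from the TSS, and 0 copies of GCGTG. This palindrome is also an E-box, a word read by many bHLH proteins including those of the MYC network, so the letters alone do not name a factor. It was present in 8.97% of promoter windows of the same length, 365 bp, and position, and once in 1 of the flanks of RLF. At least 2 cores of either form, the number at RLF with both strands counted, were present in 31.3% of such windows. CACGTG was also in 14 of the 31 places at a TSS with the 3 lists. Their shared intervals had a median of 634 bp, so the 8.97% is not matched to them in length. In promoter windows of the ITFG2 length, 849 bp, CACGTG was present in 15.7%. Counted over the 63 places, CACGTG was in 31.7% (95% Clopper-Pearson interval 20.6 to 44.7) of the shared intervals and in 11.1% of their 126 flanks. These flanks were not matched for base content.

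ITFG2 was the richest of the 3, with 3 readings of ACGTG and 5 of GCGTG in its shared interval, and 2 of the ACGTG readings were the strands of one CACGTG. At least this many cores were present in 2.57% of promoter windows of the same length and position, and its flanks held 2 each. The first ACGTG, from 2921943 to 2921947 at 157 bp from the TSS, lay in the coding part of the first exon, with a GCGTG 9 bp further on. The CACGTG, from 2922106 to 2922111, lay in an intron between copies of GCGTG at 314 and 327 bp. Among the 31 places 3 had more cores than ITFG2, 25 had more than RLF and 29 had more than TFRC, with a median of 5. These counts were not adjusted for the length of the interval. From the longest interval down, ITFG2 was in place 6, TFRC in place 27 and RLF in place 30. TFRC and RLF were 2 of the 6 places at a TSS with 0 copies of GCGTG. Of promoter windows of their lengths and positions, 51.0% and 47.2% held GCGTG, against 70.2% for the ITFG2 length.

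**Figure D3:**
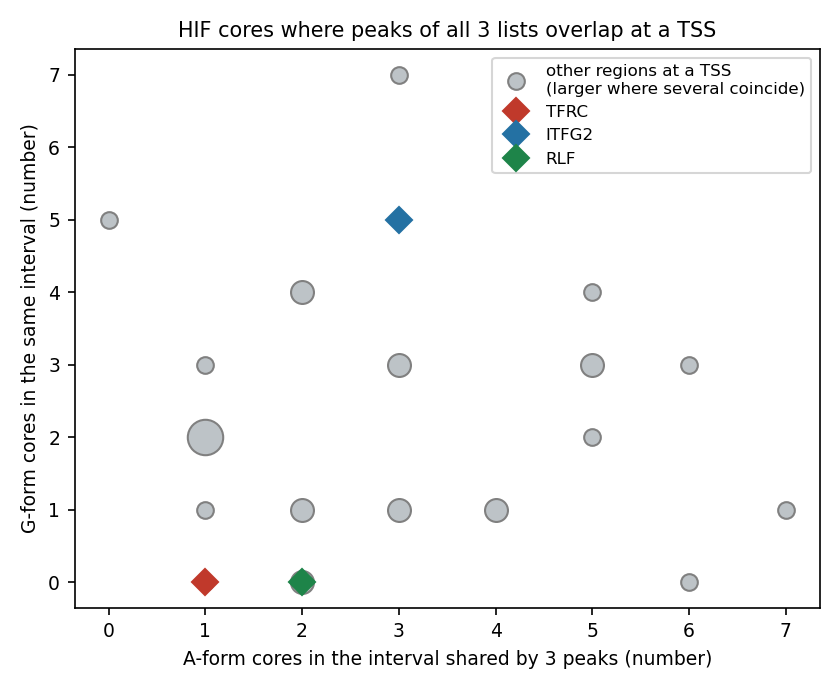
Number of ACGTG (A form, x axis) and GCGTG (G form, y axis) in the interval shared by the 3 peaks, on either strand, at 31 places at a TSS. TFRC has 1 and 0, RLF 2 and 0 (the strands of 1 palindrome) and ITFG2 3 and 5.

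At each of the 3 genes the nearest ACGTG lay closer to the centre of the HIF-1α peak than to the centre of either HAUSP peak. The distance to the HIF-1α centre was 22 bp at TFRC, 0 bp at ITFG2 and 23 bp at RLF. The nearest ACGTG was 113.5 bp from the HAUSP centre of H1299 at TFRC, 39.5 bp at ITFG2 and 83 bp at RLF. For the HAUSP centre of MDA-MB-231 these distances were 83.5, 64 and 186 bp. The nearest copy was not always the same site. For HAUSP of H1299 at TFRC it was the copy at -332 bp, which lay 331 bp from the HIF-1α centre. For both HAUSP peaks at ITFG2 it was the CACGTG, whose ACGTG readings lay 163 and 164 bp from the HIF-1α centre. Over the 31 places at a TSS the HIF-1α centre was the nearest of the 3 in 16, with median distances of 33.5 bp for HIF-1α, 46.5 bp for HAUSP in H1299 and 42 bp for HAUSP in MDA-MB-231. The medians of the 3 lists are close together, and the order seen at the members was not that of most other places. An ACGTG was within 25 bp of the HIF-1α centre in 14 of 31 places, or 45.2% (95% Clopper-Pearson interval 27.3 to 64.0), and within 25 bp of 4.84% of 62 points 2000 bp to either side. The limit of 25 bp was set after the distances at the members were seen. All 3 members lie within it by that choice and are counted in the 14, and the interval does not allow for this. HIF-1α peaks are narrower than HAUSP peaks, with a median of 687 bp against 1157 bp in H1299 at these places, and the part of width in these distances was not tested. The points 2000 bp to either side were not matched for base content.

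**Figure D4:**
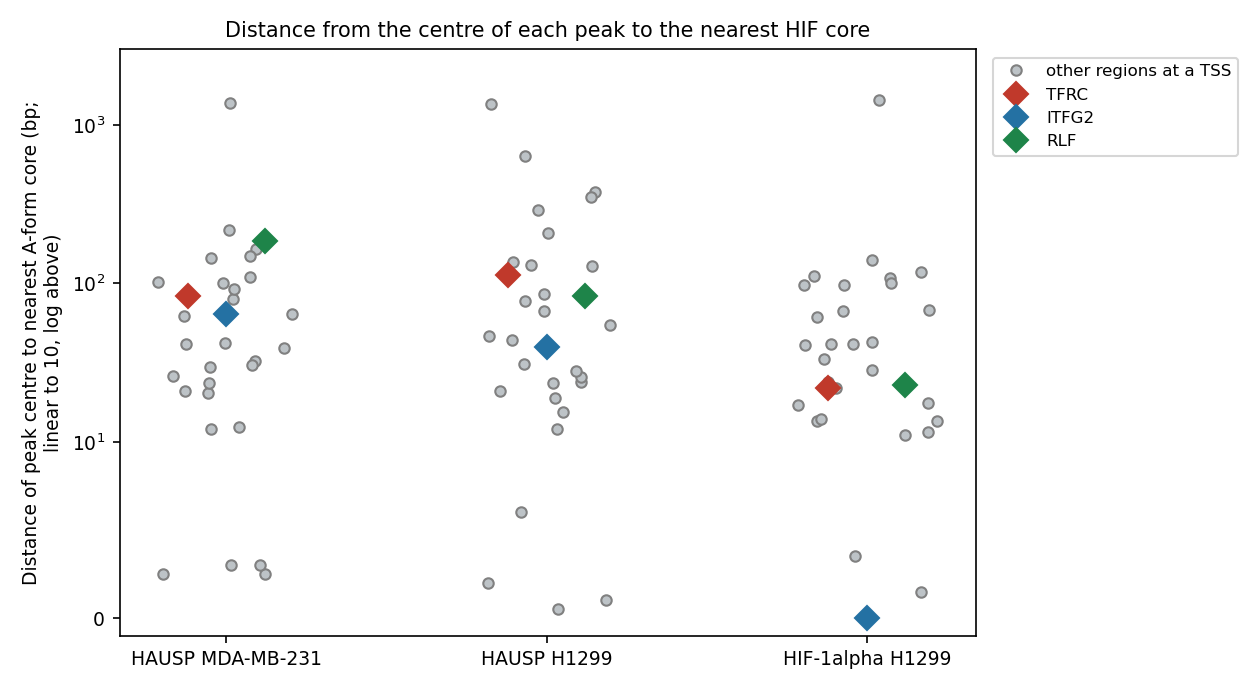
Distance in bp from the centre of each peak to the nearest ACGTG (axis linear to 10 bp and logarithmic above) at the 31 places at a TSS, by list. The 3 genes, drawn as diamonds, are at 22, 0 and 23 bp in the HIF-1α list and at 39.5 to 186 bp in the HAUSP lists.

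ATGGC, a word within the sequence read by the zinc finger protein YY1, was present in the shared interval of each member, with 2 copies at TFRC, 2 at ITFG2 and 1 at RLF. It was also present in 21 of the 31 places at a TSS, or 67.7%, and in 72.6% of their flanks, and in 50.4%, 73.3% and 46.2% of promoter windows of the length of the TFRC, ITFG2 and RLF intervals. The copies nearest to the TSS are shown with ATGGC or its complement GCCAT in capitals, because those of ITFG2 and RLF lie at the start of the coding sequence.
RLF, chr1:40627060-40627088, plus strand: ggccgtgggaagATGGCggacggaaaggg
ITFG2, chr12:2921912-2921940, plus strand: gctcttggaggtGCCATgaggtcagttag
TFRC, chr3:195808956-195808984, minus strand: cggttaggggccGCCATcccctcagagcg
The ATGGC of RLF began at 40627072, the first base of its coding sequence, and lay 17 bp from the HIF-1α centre. The GCCAT of ITFG2, from 2921924 to 2921928, overlapped the first base of its coding sequence at 2921927 and lay 19 bp from the HIF-1α centre. The copy of TFRC nearest to the TSS, from 195808968 to 195808972, was at 54 bp and 55 bp from the HIF-1α centre.

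Other promoter words differed in number between the members, whose intervals also differ in length. TFRC had a TATAAA, the TATA box word, on its own strand at -31 bp from the MANE Select start, a word present in 11.8% of promoter windows of that length and position, while ITFG2 and RLF had 0 copies in their intervals. GGGCGG, the GC box of SP1 and related proteins, had 3 copies at TFRC, 1 at ITFG2 and 1 at RLF, and was present in 59.6%, 70.9% and 57.3% of such windows. CCAAT was present once at ITFG2 and in 0 copies at TFRC and RLF. It was present in 58.2% of such windows for ITFG2, 40.5% for TFRC and 37.5% for RLF. The shared intervals had a GC content of 71.7% at TFRC, 69.3% at RLF and 58.2% at ITFG2, against a median of 59.5% and a range of 48.0 to 72.9% over the 31 places. The medians over promoter windows of the same lengths and positions were 62.1, 62.2 and 60.9%, in the same order of genes. A GC content at least as high as the member's was present in 20.2%, 28.4% and 59.9% of those windows. CpG was present at 0.859, 0.934 and 0.687 of the number expected from the base content, in the same order of genes, and the medians over promoter windows of the same lengths and positions were 0.724, 0.728 and 0.699. ITFG2 was thus the member with the most cores and the lowest GC content. The flanks had a GC content of 47.2 and 49.9% at TFRC, 40.5 and 43.6% at RLF and 53.7 and 43.2% at ITFG2. The part of base content in the contrasts of words with flanks was not tested.

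Genes that work beside the members were read for peaks within 5000 bp of the TSS, a range in which 4.47% of protein-coding genes had a peak of any list, 1.17% a HAUSP peak of MDA-MB-231, 2.99% a HAUSP peak of H1299 and 1.38% a HIF-1α peak. Each list of such genes counts its member, which was chosen for its peaks, so the counts are also given without it. Of 30 genes of iron uptake and handling, 2 had a peak of any list, and 1 without TFRC. These were TFRC and NFS1, the cysteine desulfurase of iron-sulfur cluster assembly, which had a HAUSP peak of H1299 with a score of 66.09 at the TSS and no other peak. The genes of transferrin (TF), ferritin (FTH1, FTL), ferroportin (SLC40A1) and the iron regulatory proteins (ACO1, IREB2) had no peak of any list in this range, so TFRC was 1 of 30 in the HIF-1α list and 1 of 30 in the HAUSP list of MDA-MB-231.

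Of 38 genes that control mTORC1, most of them through amino acids, 5 had a peak of any list, and 4 without ITFG2. With ITFG2, only DDIT4, a stress-induced inhibitor of mTORC1, had peaks of all 3 lists, with scores of 79.77 in MDA-MB-231, 95.85 in H1299 and 179.22 for HIF-1α. RRAGA, a Rag GTPase, and BMT2, a sensor of S-adenosylmethionine, had a HAUSP peak of H1299 alone, with scores of 61.64 and 109.75.

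Of 10 genes made up of RLF, its relatives ZNF292 and ZNF654, and the MYC and MAX network, 3 had a peak of any list, and 2 without RLF, which were its relatives. ZNF292 had peaks of all 3 lists, with scores of 464.69 in MDA-MB-231, 773.5 in H1299 and 498.57 for HIF-1α. The nearest edges of these peaks lay 3094, 3116 and 3546 bp from its most upstream annotated TSS. Distances to other annotated starts of ZNF292 are not given here. The same 3 peaks lay at the TSS of another gene, the lncRNA ENSG00000272008, and were not assigned to either gene. ZNF654 had HAUSP peaks in both lines, with scores of 115.57 and 110.13, and no HIF-1α peak. MYCL, the fusion partner of RLF, had none. Of 19 genes of oxygen sensing by HIF, 3 had a peak of a single list, HIF3A in the HAUSP list of MDA-MB-231 with a score of 68.57, HIF1AN in that of H1299 with 54.41 and CITED2 in the HIF-1α list with 52.42. HIF1A, VHL and USP7, the gene of HAUSP itself, had none. The lists are short, were chosen with results of these data known, and no test was made on them.

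Likeness to each member was measured as the sum, over the 3 lists, of the differences in rank as a percent of the list, among the other 27 protein-coding genes with all 3 peaks. TFRC was nearest to P4HA1, a subunit of collagen prolyl hydroxylase, with a sum of 5.99, to DDIT4 with 7.62 and to ENSG00000255439 with 17.8. RLF was nearest to the glycolytic enzyme gene ENO1 with 7.14, to the histone demethylase gene KDM4B with 9.39 and to NARF with 10.7. Near ranks were not always near scores. ENO1 had 218.09 in MDA-MB-231, 535.84 in H1299 and 277.52 for HIF-1α, against 242.26, 259.69 and 116.25 at RLF. ITFG2 had no near counterpart, since the smallest sums were 32.8 for LONP1 and CATSPERD, which share their peaks, and 38.3 for PLOD3. The largest part of the difference to LONP1 came from the MDA-MB-231 list, in which ITFG2 stood at 80.6% of the list and LONP1 at 60.8%.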

How the data were processed

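Per the study's methods and the submitters' processing notes, reads were aligned by the authors to the hg19 build using Bowtie 0.12.7, keeping reads with a unique position, and called peaks with MACS 1.4.2 at default parameters, 1 library per list. Each deposited line holds a peak's coordinates and its score, and the control library is not given in the sources used here. The HIF-1α list writes chromosome names without a prefix, and its name mentions removal of duplicate reads, which the names of the HAUSP lists do not. Starts were converted to count from 1. GRCh37 sequence and GENCODE release 44 mapped to it were used, and a gene's TSS was its most upstream annotated base. Peaks of 3 lists overlapped if they shared 1 bp. Words were searched on both strands. Promoter windows were placed at the TSS of protein-coding genes. The overlap and word searches were tested on simulated data. No test between lists was made, since each has 1 library. Intervals are exact Clopper-Pearson intervals.

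The members and gene lists were chosen with earlier results of these data known. Named were the 3 members, genes sharing their peaks, genes of the 4 gene lists with a peak within 5000 bp (at most 10 per list), and the 3 genes nearest to each member in rank. A gene of these lists is not reported here. Genes without peaks were named after their values were seen. Alternatives changed the window, the score minimum, the overlap, the TSS, the interval searched and the core. The tools were pysam 0.24.0, pandas 2.3.3, scipy 1.17.1, numpy 2.4.6 and matplotlib 3.10.9 under Python 3.11.15.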

Additional observations from a re-analysis of the deposited data

How the results depend on the processing

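No paired analysis was possible because there was 1 library per list, and for the same reason none could be left out. Genes with peaks of all 3 lists at the TSS numbered 83 with a window of 5000 bp and 19 with a score of at least 100 in every list, against 45. The 63 places where the lists overlap fell to 27 with that score. Of the 3 members only RLF was kept at that score in both counts, and all 3 were kept under the other alternatives run for these counts. The cores of TFRC numbered 3 in the whole HAUSP peak of H1299 instead of 1, and those of ITFG2 3 with ACGTG alone instead of 8. The share of the 63 places with a core of either form in the shared interval was 95.2% (95% Clopper-Pearson interval 86.7 to 99.0), with 56.3% in flanks, and 76.2% in 200 bp at the HIF-1α centre. The flanks were not matched for base content. With a score of at least 100, 1 iron gene, 3 mTORC1 genes and 0 oxygen-sensing genes had a peak, and 1 oxygen-sensing gene had one within 500 bp. Since the peaks are nested, offsets of centres turned sign when an edge was used. For HIF-1α against HAUSP of H1299 the edges of lower coordinate gave -343 bp at TFRC, 22 bp at ITFG2 and 336 bp at RLF, with signs along the gene. This edge is the downstream one at TFRC, which is on the minus strand, and the upstream one at ITFG2 and RLF. For HAUSP of MDA-MB-231 against H1299 the edges of lower coordinate gave -281 bp at TFRC and 243 bp at ITFG2. At RLF the edges of higher coordinate gave -54 bp. From the MANE Select start, an alternative added after the data were seen, the first ACGTG lay at -86 bp for TFRC and at 111 bp for ITFG2. Peaks near assembly gaps set aside, also chosen after the data were seen for the count of genes, left 40 genes.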

Other observations

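Besides the promoter peaks, 2 of the 3 genes had a further HIF-1α peak within their annotated span, and none had a further HAUSP peak there in either line. In TFRC it covered 195749643 to 195750362 on chromosome 3, with its centre 59.0 kb downstream of the most upstream TSS, beyond the end of the MANE Select transcript and outside the exons of every annotated TFRC transcript. Its score was 85.8, rank 140 of 4054, and it held 2 copies of ACGTG. In RLF it covered 40657613 to 40658073 on chromosome 1, in an intron 30.8 kb downstream of the TSS. Its score was 51.75, rank 3334 of 4054, close to the lowest score of the list, and it held 0 copies of ACGTG.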
